A study of Macaca radiata with 6 samples.

Results

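The highest signals of the mid-luteal corpus luteum of the bonnet monkey (Macaca radiata) are described here from the vehicle arrays of the study. The members were selected on measured values. All 52766 non-control probe sets of an Affymetrix Rhesus array were ranked by their mean signal over the 3 vehicle arrays, and the 300 highest with exactly 1 gene symbol in the platform annotation were taken. They are 300 of 24956 probe sets with 1 symbol (1.2%), and they name 242 genes. Since the level chose them, their levels are given as a description, and no test was made on them.

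The study asked how the corpus luteum responds to prostaglandin F2alpha (PGF2alpha), a hormone that brings about its regression. The vehicle group comprised 3 arrays, numbered 4, 5 and 6 in the sample titles, from female bonnet monkeys injected intramuscularly with phosphate-buffered saline (PBS) on day 10 of the luteal phase. The corpus luteum was removed 24 h later. The other 3 arrays, numbered 1 to 3, carried tissue taken 24 h after PGF2alpha (3 injections at 59 µg/kg), and the groups are not compared here. The labels state 3 animals per group but tie no array to an animal, so the spread between arrays may be partly technical.

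The corpus luteum forms from the ruptured follicle and secretes progesterone. Its cells carry cholesterol into the mitochondria with the help of STAR, where the side-chain cleavage enzyme makes pregnenolone from it with electrons passed on by the ferredoxin FDX1. A 3-beta-hydroxysteroid dehydrogenase then turns pregnenolone into progesterone. The primate gland also makes oestradiol through aromatase and secretes the peptide hormones relaxin and inhibin.

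Values are linear signals from Microarray Suite 5.0 (MAS5), and 3 values in a row are those of vehicle replicates 4, 5 and 6. A signal depends on how well its probes bind as well as on the amount of transcript, so the order of signals between genes is an order of signals and not of transcripts. The probes were designed on another macaque, the rhesus monkey. The coefficient of variation (CV) is the SD of the 3 signals as a percentage of their mean. In whole tissue, fewer cells of a type and less RNA per cell cannot be told apart.

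The median signal was 122.8 on vehicle replicate 4 and 122.1 on vehicle replicate 6, and it was higher on vehicle replicate 5. The highest signal was 70498, 76997 and 62373. The scanner files give a hybridisation time for each array but name no run. Times within 10 minutes of each other were taken here as 1 hybridisation run. By this rule vehicle replicates 5 and 6 fell in 1 run and vehicle replicate 4 in another. The ratio of 3-prime to 5-prime control signal, a measure of how intact the RNA was, came to 1.54, 2.25 and 1.49 for beta-actin and to 1.52, 1.31 and 1.36 for GAPDH. Vehicle replicate 5 therefore had the highest ratio for beta-actin and the lowest for GAPDH.

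The members ran from a mean signal of 12997 to 67684, a 5.21-fold range, with a median of 19322 against 123 for all probe sets. They held 16.4% ± 0.26 (SD, n = 3) of the summed signal of an array. Their 10 highest probe sets held 8.38% of the members' own sum. The level thus fell gradually along the list, with 55 members above 30000 and 160 below 20000. To reach 300 named probe sets, 169 others had to be passed over, 120 without a symbol and 49 with several, and 5 of these were among the first 10 of all. The highest signal of the array, with a mean of 69874, belonged to a probe set without a single symbol. Another 67 members bore a locus number and no gene name, and 5 of those stood among the 25 highest, with means from 38941 (LOC693947) to 46774 (LOC711964).

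The highest named signals came from a matrix protein, a cytoskeletal peptide and the cholesterol transporter of steroid-making cells. TIMP1, an inhibitor of matrix metalloproteinases, led with 67341, 73338 and 62373 (mean 67684 ± 5491, SD, n = 3). TMSB10, a thymosin that binds actin monomers, gave 63877, 68729 and 58619. STAR, the steroidogenic acute regulatory protein, gave 58817, 71945 and 59423 (mean 63395 ± 7411, SD, n = 3). The ranges of these 3 genes over the arrays overlapped, so their order was not set apart by the spread. The next were B2M, the light chain of class I histocompatibility molecules (59206, 71105 and 50905), and FUCA1, the lysosomal enzyme that removes fucose (60528, 63392 and 50815). IFI27, an interferon-inducible protein, followed with 55619, 54174 and 53324. Relaxin, encoded by RLN2, was the hormone gene of highest signal among the 10 leading members and closed that group with 55429, 47705 and 49462.

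**Figure D1:**
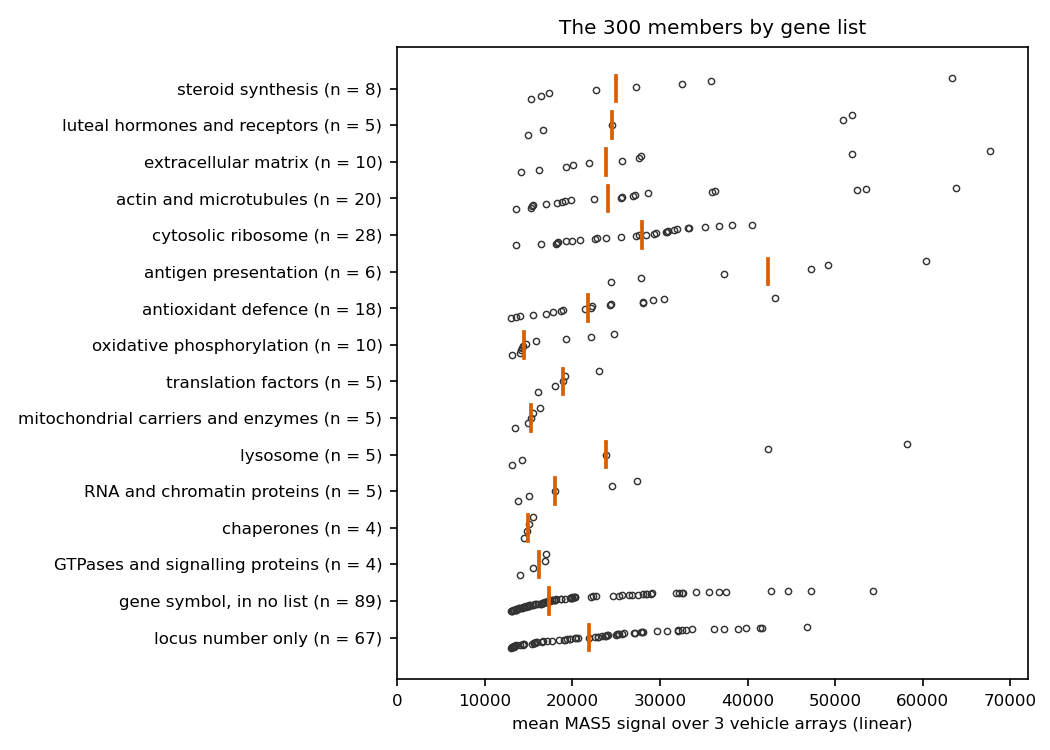
Mean MAS5 signal (linear axis) of the member probe sets in each gene list, averaged over the 3 vehicle arrays, 1 point for each member probe set. A probe set in more than 1 list appears in each, and the ribosomal list has the most points, with 28 of the 300 members.

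Steroid synthesis was represented from cholesterol import (STAR) through electron transfer (FDX1) to the step that makes progesterone (HSD3B2). Of the 50 named probe sets of this list, 8 were members (16%, against 1.2% of all named probe sets), and they stood for 6 of its 25 genes. FDX1, the mitochondrial ferredoxin, had 2 member probe sets, with 39164, 33556 and 34695 in one and 32413, 31775 and 33409 in the other. Neither differed between arrays by as much as 1.2-fold. HSD3B2, a 3-beta-hydroxysteroid dehydrogenase, gave 18205, 38349 and 25326 (mean 27293 ± 10215, SD, n = 3). This was the widest spread of the list, and vehicle replicate 5 was 2.11-fold above vehicle replicate 4.

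CYP19A1, the aromatase that makes oestradiol, gave 12824, 15767 and 20636, highest on vehicle replicate 6. HSD11B1, which regenerates cortisol from cortisone, gave 17256, 25451 and 25315, with vehicle replicate 4 below the other arrays. CYB5A, cytochrome b5, which donates electrons to steroid-making P450 enzymes among others, had 2 member probe sets with means of 17298 ± 2240 and 15229 ± 2133 (SD, n = 3). The 3 arrays did not keep 1 order across these genes: of the 8 probe sets, 5 were highest on vehicle replicate 5, 1 on replicate 4 and 2 on replicate 6. The 5 became 4 after quantile normalization and 3 after scaling to a common median. Of all members, 40.3%, 32.3% and 20.7% were highest on vehicle replicate 5 under the same 3 scalings.

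Of the 59 named probe sets of genes that supply cholesterol, 0 were members, where 1.2% of all named probe sets were. The median mean signal of these probe sets was 731, against 123 for all probe sets. LIPA, the lysosomal acid lipase that frees cholesterol from lipoprotein, came nearest with 11811, 11691 and 14895. It was followed by TM7SF2, a sterol reductase (mean 8559), and by NPC2 and NPC1, which move cholesterol out of lysosomes (means 7822 and 7686); these 4 were chosen after their values were seen. Of the 32 genes, 18 had a mean of at least 1000 in their highest probe set and 14 lay below. On vehicle replicate 5, 18 of the 32 genes were highest and 7 lowest; 18 were highest after quantile normalization and 14 after scaling to one median. Of all named genes, 38.6%, 35.6% and 27.7% were highest there under the same 3 scalings. CYP11A1, LHCGR, SCARB1, HSD3B1, SOAT1 and PTGFR are not analysed here.

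Hormones and hormone-binding proteins contributed 5 of their 64 named probe sets (7.81%). IGFBP7, a secreted binding protein of the insulin-like growth factor family, gave 52563, 52440 and 50774, a CV of 1.92%. INHA, the inhibin alpha subunit, gave 26260, 25004 and 22462. PGRMC1, a membrane protein linked to progesterone signalling, gave 14434, 16533 and 13792. IGFBP1 did not share this evenness: its signals of 25703, 7947 and 16340 spanned 3.23-fold. INHBA, the subunit that joins INHA in inhibin A, lay outside the members with 18283, 11203 and 5913.

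**Figure D2:**
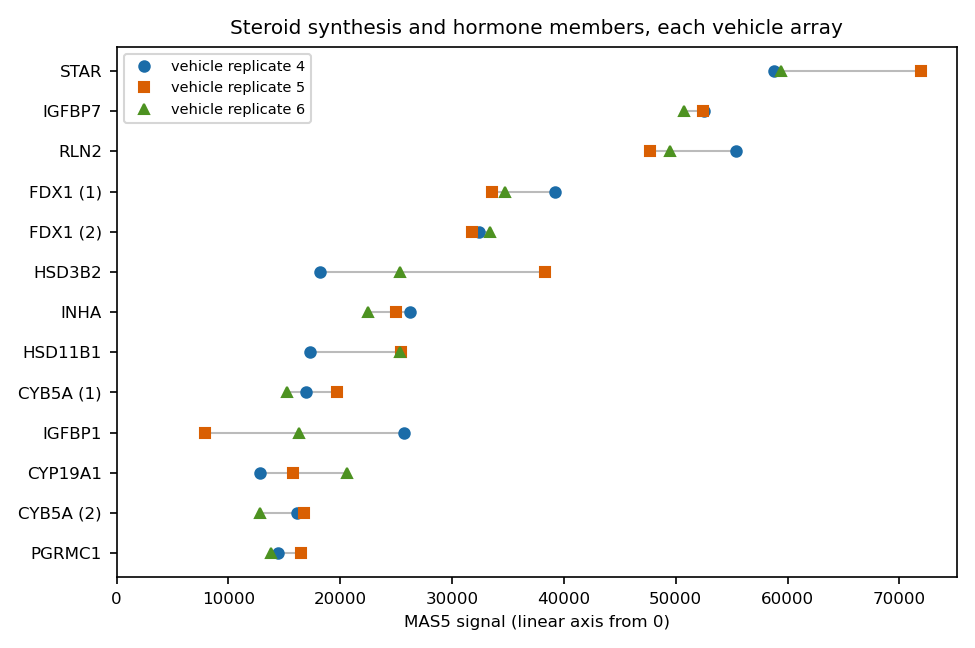
MAS5 signal (linear axis) of each member of the steroid synthesis and hormone lists on vehicle replicates 4, 5 and 6, 1 symbol per array. Points nearly coincide for IGFBP7 and FDX1 and lie far apart for HSD3B2 (18205 to 38349) and IGFBP1 (7947 to 25703).

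Markers of luteal steroid-making cells were read in the labelled tissue. Of 18 such genes named on the array, 17 exceeded the array median on all 3 arrays, and 6 were members: STAR, FDX1, GSTA3, HSD3B2, INHA and CYP19A1. Next came CYP17A1, the enzyme that makes androgen precursors (4330, 4080 and 9601). Then followed GSTA2, a glutathione transferase (mean 4859), FDXR, the reductase that feeds FDX1 (4601), and GSTA4 (3482). NR5A2, a nuclear receptor that drives steroidogenic genes, had a mean of 3349, HSD17B7, which acts on oestrogens and cholesterol precursors, 3136, and PRLR, the prolactin receptor, 1859. Lower means were those of GSTA1 (286), NR5A1 (270), HSD17B1 (225) and PGR, the nuclear progesterone receptor (171). AKR1C2, with a mean of 55.6, was the gene not above the array median on every array. Passing that median does not identify the tissue, since 26 of 28 endothelial and 15 of 17 macrophage genes passed it too. Each gene was read by its probe set of highest mean, and the share of all named genes that passed was not computed.

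Markers of other cells a corpus luteum holds were read as well. The macrophage list had 1 member gene (LYZ) and the stroma list 2 (COL1A2 and DCN), and the granulosa and oocyte list shared CYP19A1 with the luteal one. Members made up 3.7%, 11.9% and 3.7% of the named probe sets of these 3 lists, against 1.2% of all named probe sets. None of the 28 endothelial genes was a member, yet 26 exceeded the array median on all 3 arrays, led by VWF (mean 8613), PECAM1 (5530), CAV1 (5406) and CDH5 (5091). All 13 genes of smooth muscle and pericytes exceeded it too, with CALD1 (12519), MYL9 (9607) and MCAM (9293) highest. Of 14 lymphocyte genes 7 did so, GZMB (10091, 7582 and 4702) and KLRD1 (mean 3197) leading. In the list for neutrophils 1 of 11 genes, LCN2 (mean 4165), exceeded it, and 7 were at or below the array median on all 3 arrays. Of the 9 red cell and platelet genes 3 exceeded it, with HBA at a mean of 1330. None of these 5 lists, of endothelium, smooth muscle, lymphocytes, neutrophils and red cells, held a member. They have 56, 40, 29, 15 and 12 named probe sets. At the 1.2% of all named probe sets, lists of this size would hold few members or none, so their absence does not set these lists apart.

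Extracellular matrix genes gave 10 members of 195 named probe sets (5.13%), beyond TIMP1 and IGFBP7 mainly fibrous proteins. COL1A2, a chain of type I collagen, gave 25399, 36423 and 21651 in its higher probe set and 14722, 19554 and 14432 in the other. Both were highest on vehicle replicate 5. FN1, fibronectin, gave 33451, 21449 and 27826 and was lowest there. DCN, the small proteoglycan decorin, was read by 3 member probe sets, which were all lowest on vehicle replicate 4 and highest on vehicle replicate 6 (20832, 25588 and 30677 in the highest). MFAP5, a microfibril protein, varied less, with a CV of 7.41% and 2.07% in its 2 probe sets. COL1A2 and DCN also mark ovarian stroma. The median CV of the matrix members was 18.4%, against 9.46% for all members.

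The cytoskeleton supplied 20 members of 196 named probe sets (10.2%), second in number to the ribosome among the lists. By share, antioxidant defence (18.9%), steroid synthesis (16%) and antigen presentation (14%) stood above it. Beside TMSB10 the cytoskeletal members were led by ACTG1, cytoplasmic gamma-actin (52972, 58411 and 49108), and TMSB4X, another actin-binding thymosin (52808, 53258 and 51481, CV 1.76%). VIM, the intermediate filament protein vimentin, gave 36179, 38880 and 33766, and ACTB, beta-actin, 38995, 32674 and 36112. The myosin light chains MYL12A and MYL6 had means of 27108 and 26951. Within this group, S100A6, a calcium-binding protein chosen after its values were seen, varied most, with 18141, 32133 and 26615 in 1 probe set and 11413, 17506 and 16788 in the other. Both probe sets of S100A6, which come from 1 probe design, were lowest on vehicle replicate 4. Such agreement was not general: of the 50 genes with several member probe sets, 28 kept 1 order of the arrays in all of them. Of the 39 genes whose member probe sets come from different designs, 20 did so.

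Ribosomal protein genes were the most numerous group. Of their 71 named probe sets 28 were members (39.4%), for 25 of 42 genes, with means from 13600 to 40456. RPL17 led with 39197, 42397 and 39774, followed by RPS18 (37480, 40212 and 36842), RPLP1 (35108, 39740 and 35310) and RPL9 (29926, 37212 and 38320). The median CV of 5.62% lay below that of all members, and none of the 28 reached 2-fold between arrays. The lower probe set of RPL35A came close, with 17312, 24833 and 12634 (1.97-fold, CV 33.7%), and was among the 15 most variable members. As deposited, 17 of 28 were highest on vehicle replicate 5, but 13 after quantile normalization and 7 after scaling to one median, so the direction depended on the scaling. Translation factors added 5 members of 104 named probe sets (4.81%), among them EIF4G2 (mean 23048), EIF1 (19119) and EIF4A2 (18934). Ribosomal transcripts have many near-identical copies in primate genomes, and a choice of 300 without probe sets that can cross-hybridise held 16 of them.

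Class I antigen presentation had 6 members of 43 named probe sets (14%). MAMU-B, a class I heavy chain of macaques, gave 46401, 50482 and 44826. MAMU-I gave 31787, 44624 and 35577, and MAMU-A 26882, 27854 and 28705. MAMU-AG, a further class I heavy chain, gave 36140, 555 and 36560. Vehicle replicate 5 was 65.9-fold below the highest array, which was the widest range of all 300 members. The member probe sets of the other class I heavy chains and both of B2M showed no such drop on that array. Outside the members, MAMU-AG had another probe set with a mean of 414. MAMU-A, MAMU-B and MAMU-I also had others there, with means from 336 to 3195. The class I genes are close in sequence, so probes can read more than one of them.

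Antioxidant defence counted 18 members for 10 genes (18.9% of its 95 named probe sets). SELENOP, the plasma selenium carrier, led with 37055, 51220 and 41198. GCLC, the catalytic subunit of the first enzyme of glutathione synthesis, gave 34044, 30127 and 23623 in 1 probe set and 24559, 14089 and 14819 in the other; both were highest on vehicle replicate 4. GSTA3, a glutathione transferase that in primates also isomerises steroid precursors, gave 26844, 30066 and 27386. PRDX3, the mitochondrial peroxiredoxin, gave 31545, 24561 and 27929. TXNIP, an inhibitor of thioredoxin, had 4 member probe sets, with means from 13031 to 24266. MT2A, a metal-binding metallothionein, had the widest spread of the list with 9848, 20769 and 11640.

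Energy metabolism added 10 of the 122 named probe sets of oxidative phosphorylation (8.2%), for 9 genes. COX6B1, a subunit of cytochrome oxidase, gave 24266, 23402 and 26726. The ATP synthase subunits ATP5MG and ATP5F1B gave 25671, 19438 and 21204, and 18591, 21402 and 17967. Complex I subunit NDUFA2 gave 16918, 11846 and 18933. Of the 10 probe sets, 9 were lowest on vehicle replicate 5, with ATP5F1B the exception; the count was 8 after quantile normalization and 9 after scaling to one median. Over all members, 40.3% were lowest on that array as deposited, 45.3% after quantile normalization and 60.3% after scaling to one median. The median CV was 10.8%, so these differences were small. Mitochondrial carriers and enzymes gave 5 members of 136 named probe sets (3.68%), including MDH1, malate dehydrogenase (mean 16328), and SLC25A5, the ADP/ATP carrier (15566).

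Several smaller lists had shares of members closer to the 1.2% of all named probe sets, such as the secretory pathway (1.89%), chaperones (2.42%), immediate early genes (1.64%) and GTPases (1.42%). Glycolysis (8.57%), the lysosome (5.62%) and lipid handling (4.11%) had few members but larger shares. All these lists are given as values. Glycolysis was read through ENO1, enolase (21198, 25679 and 21694), and GAPDH (16319, 16171 and 17753). The secretory pathway was read through RPN2, of the enzyme that attaches sugar chains to proteins (mean 21322), P4HB, a protein disulphide isomerase (17988), and CANX, the chaperone calnexin (15572). Chaperones numbered 4, including HSPA8 (15530) and PPIB (15034). Lysosomal members were FUCA1, the proton pump subunit ATP6V0E1 and ASAH1, acid ceramidase (14333, 11514 and 13553). In the lipid list, SCD5, a fatty acid desaturase, gave 20635, 19375 and 20032. APOE, the lipoprotein that carries cholesterol between cells, gave 15700, 10681 and 16465 and was lowest on vehicle replicate 5 in both of its probe sets. RHOA, a GTPase of the cytoskeleton, was among the most even of all members with 17147, 16841 and 17012. DUSP1 (13794, 13245 and 15021), a phosphatase of MAP kinases, was the immediate early member.

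Another 89 members had a gene symbol but belonged to none of the lists. SRGN, the proteoglycan serglycin of secretory granules, was the highest of them after IFI27, with 48854, 47223 and 45496. The following were chosen after their values were seen. ENPP2, the enzyme autotaxin that makes lysophosphatidic acid, had 3 member probe sets, from 35104, 30707 and 32158 down to 27895, 12919 and 20123. PAPSS2, which makes the sulphate donor for sulphated steroids and proteoglycans, had 3, with 19084, 24363 and 22858 in the highest. LTA4H, which makes leukotriene B4, gave 32000, 24988 and 28716. H19, a noncoding RNA of an imprinted locus, gave 31606, 42756 and 35821. AREG, amphiregulin, a ligand of the EGF receptor, gave 12919, 21997 and 19212. SAT1 and OAZ1, which both lower polyamine levels, gave 31212, 29076 and 27050, and 27824, 28974 and 25714.

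Some symbols were borne by probe sets that disagreed widely, so the name is uncertain. SLC45A2, a melanosome transporter, read 39682, 49405 and 38908 in its member probe set and means of 8.76 and 13.7 in its 2 others. NLGN4X, a synaptic adhesion protein, read 44106, 49288 and 40394 there and 12.3 and 84.4 elsewhere. LIN7A, a scaffold protein, read 37916, 38434 and 36144, while its 5 other probe sets had means from 82.5 to 261. IL2, a T-cell cytokine whose probe sets were chosen after their values were seen, had 2 members (39393, 24870 and 33334 in the higher) and another probe set at 10.3. Of the 242 genes, 139 had another named probe set outside the members, and for 39 of these at least 1 lay below 123, the median of all probe sets.

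The members varied less between arrays than the probe sets of the array at large. Their median CV was 9.46%, against 27.8% over all probe sets and 21.1% over the named ones. In 13 members (4.33%) the highest array was at least 2-fold above the lowest, against 41% of all probe sets. The part of the signal level in this contrast was not tested. Within the members the CV was close to level, with medians of 8.2%, 9.72% and 10.4% from the 100 highest signals to the 100 lowest. The 8 smallest CVs included RPL29 (0.689%), SLC4A7, a bicarbonate transporter (0.741%), RHOA (0.901%) and TMSB4X.

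The most variable members included enzymes that oxidise drugs and steroids. CYP3A4, a liver-type cytochrome P450, gave 17255, 26814 and 4317, a 6.21-fold range. Its relative CYP3A5 gave 25043, 28875 and 13222 in 1 probe set and 19500, 27851 and 12651 in the other. PBX3, a homeodomain transcription factor, gave 21082, 24080 and 8818, and its second probe set 20470, 23804 and 8681. All 5 of these probe sets had the order vehicle replicate 5, then 4, then 6. The 2 probe sets of PBX3 come from 1 probe design, so they are not separate readings. Outside the members, other probe sets of these genes had lower means: 815 for PBX3, 318 for CYP3A5 and 3230 to 4852 for CYP3A4. The CYP3A genes are near-identical in sequence, so their probe sets may share transcripts. ATXN7, a subunit of a chromatin-modifying complex, gave 9927, 21466 and 11273. ZNF652, a zinc finger protein, gave 26435, 44727 and 25324. Both were highest on vehicle replicate 5. ENPP2 (27895, 12919 and 20123 in its lowest probe set), CPQ, a carboxypeptidase (24282, 11281 and 22044), and LOC706293 (28767, 10232 and 22181) were lowest on that array. The probe sets of ENPP2 were all lowest there, whereas the highest one of CPQ was highest there (25899, 32208 and 26255).

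**Figure D3:**
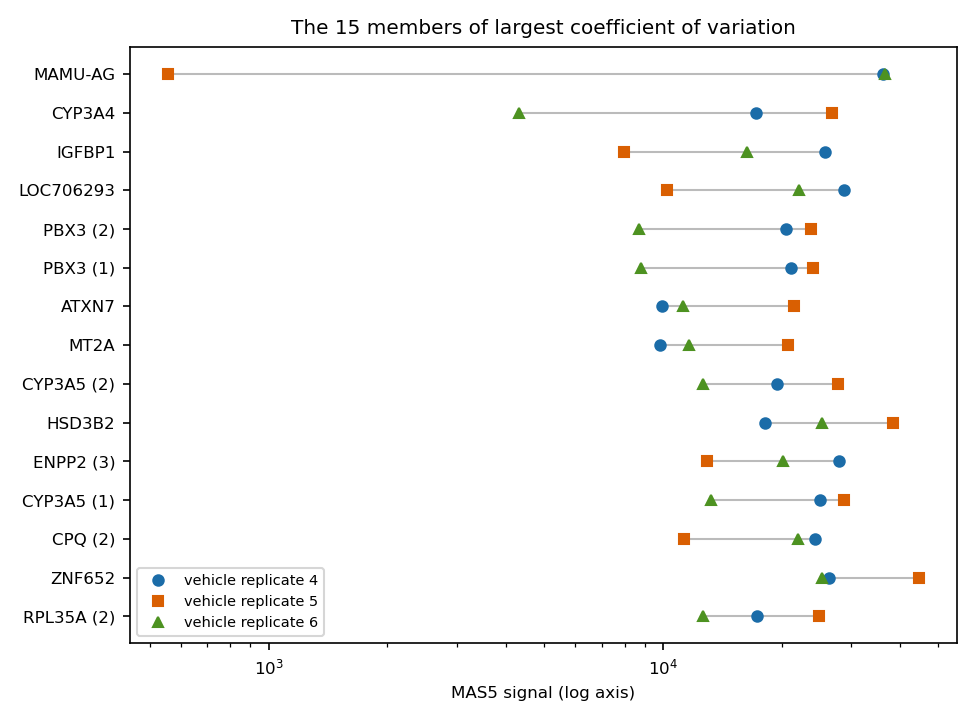
MAS5 signal (log axis) on vehicle replicates 4, 5 and 6 of the 15 members with the largest coefficient of variation, 1 symbol per array. MAMU-AG has a single low point (555, vehicle replicate 5), and CYP3A4, CYP3A5 and PBX3 share a low point on vehicle replicate 6.

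Among the members as deposited, vehicle replicate 5 stood farthest from the other arrays more often than they did. It was the array farthest from the others in 138, against 96 for vehicle replicate 4 and 66 for vehicle replicate 6. The matching share over all named probe sets, and the count under other scalings, were not computed. As deposited, vehicle replicate 5 was the highest in 121 (40.3%) and the lowest in 121. After quantile normalization these counts were 97 and 136, and after scaling to one median 62 and 181, so whether it lay above or below depended on the scaling. Of the 13 members that spanned at least 2-fold, replicate 5 lay apart in 8, above the others in 3 and below in 5, and replicate 6 lay below in the other 5. This too was read as deposited and for the members only. The median member differed by 1.15-fold between replicates 4 and 5, by 1.09-fold between 4 and 6 and by 1.12-fold between 5 and 6. The closest pair, 4 and 6, lay in different hybridisation runs as inferred from the times, while 5 and 6 shared a run. Per the scanner files, 4 and 6 were handled on module 1 of the fluidics station and 5 on module 2; the part of the module was not tested.

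**Figure D4:**
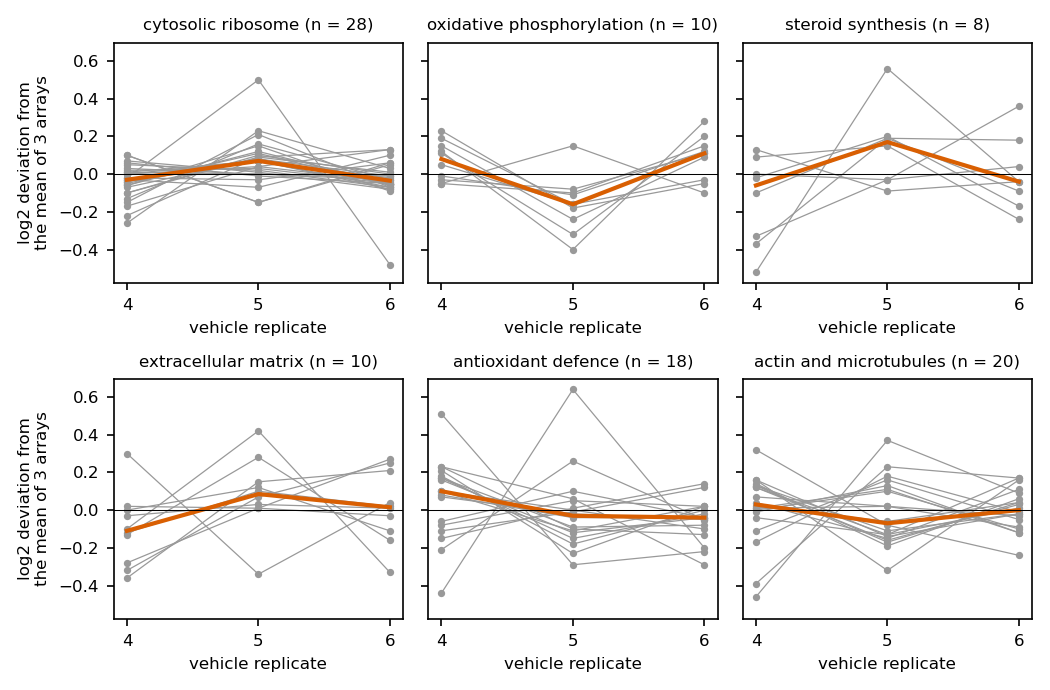
Deviation of each array from the mean of the 3 vehicle arrays (log2 units), as the median over the members of each gene list. Signals are as deposited. Vehicle replicate 5 lies lowest for oxidative phosphorylation (-0.16, against 0.08 and 0.11) and highest for steroid synthesis (0.17, against -0.06 and -0.04). Of the 8 steroid synthesis members, 5 were highest there as deposited, 4 after quantile normalization and 3 after scaling to a common median.

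Most macrophage genes were lowest on that array. LYZ, lysozyme, the member of this marker list, gave 21139, 12460 and 19946. Of the 17 named macrophage genes, 13 were lowest on vehicle replicate 5, and 14 were so after either quantile normalization or scaling to one median. Of all named genes, 33.5% were lowest there as deposited, 36.2% after quantile normalization and 44.3% after scaling to one median. Low values there were not particular to macrophage genes: as deposited, 14 of 28 endothelial genes were lowest on that array. So were 8 of 11 neutrophil genes, but 7 of the 11 were at or below the array median on all 3 arrays. LCN2, the neutrophil gene above it on all 3, was highest there (3056, 6486 and 2954). Lowest there were 1 of 13 smooth muscle genes and 0 of 9 red cell genes, of which 4 were at or below the median on all 3 arrays. The summed signal of the 17 macrophage genes was 38001, 22214 and 34235. The complement genes C1QA (3001, 1680 and 2071) and C1QB (1543, 751 and 1268) and the myeloid adaptor TYROBP (1871, 922 and 1859) followed LYZ, while MRC1, the mannose receptor (1109, 1228 and 1166), did not. BST2, an interferon-inducible membrane protein chosen after its values were seen, was low on the same array as well (21610, 12012 and 17941). The part of these cells or of the beta-actin ratio in the pattern of vehicle replicate 5 was not tested.

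**Figure D5:**
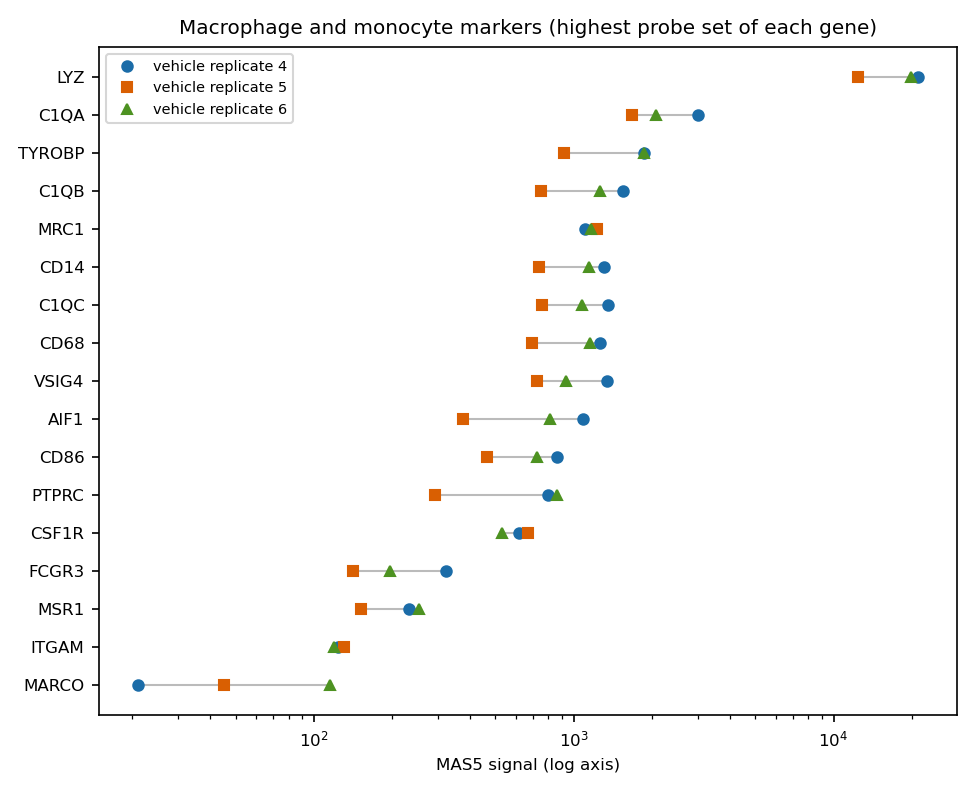
MAS5 signal (log axis) of the 17 named macrophage marker genes on vehicle replicates 4, 5 and 6, each gene by its probe set of highest mean. The point of vehicle replicate 5 is the lowest in 13 genes, LYZ among them, and the exceptions are MRC1, CSF1R, ITGAM and MARCO.

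Since each vehicle array helped to choose the members, 278, 269 and 281 of them were among the 300 highest of that array alone, and 237 (79%) were so on all 3. When the members were chosen from 2 arrays and looked up in the array left out, 263, 258 and 272 of 300 were among its highest 300. On the PGF2alpha arrays, which the choice did not use, 223, 221 and 247 of the members were among the 300 highest. At the edge of the list the signals were continuous. TXNIP (13031 ± 1360), LOC714951 (13012 ± 1356) and MZT2B (12997 ± 1168, SD, n = 3) were the last taken. A further probe set of ACTG1 (12980 ± 955), MTCH1 (12977 ± 3829) and MYDGF (12962 ± 295, SD, n = 3) were the first left out. These 6 lay within their spread of each other.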

How the data were processed

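The deposited intensities are linear MAS5 signals made by the authors, per the labels; the MAS5 version is not given in the sources used here. Leaving out 2% of values at each end, their mean was 500.0 on each vehicle array, so no further scaling was applied. Detection calls were not used. Of 52865 probe sets, 99 controls were left out. The platform annotation, which can be old, gave 1 symbol for 24956, several for 361 and none for 27449. No genome was used.

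Means, SDs, CVs and ranks were computed in Python 3.11.15 with pandas 2.3.3 and numpy 2.4.6, with the selection tested on simulated data. No significance test was run, since the members were chosen by level. The members and the 31 gene lists were chosen with earlier results of these data known. In the lists, H19 was removed from and H3-3B added to the RNA and chromatin proteins, and RHEB was added to the GTPases, after the annotation was seen. Named are the 25 members of highest mean, up to 8 of highest mean per list, the 15 of largest and 8 of smallest CV, 3 on each side of the threshold, and cell-type markers: all luteal ones, and for other lists the members or the 6 highest. Other genes are said to be chosen after their values were seen. Alternatives changed the ranking measure, the scaling, the probe sets allowed and the number of members, and left out each array.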

Additional observations from a re-analysis of the deposited data

How the results depend on the processing

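Of 137 values computed under the alternatives, for 21 results, 116 stayed within the margin set for them and 21 moved. Changing the number of members moved sizes that scale with it. With 150 members the share of the summed signal was 10.8%, the genes 126, the actin and microtubule members 12, antioxidant 10, oxidative phosphorylation 2, steroid synthesis 5, and those spanning at least 2-fold 6. With 600 members the share was 23.6%, the genes 466, the actin and microtubule members 35, matrix 17, oxidative phosphorylation 20, and those spanning at least 2-fold 22. Without probe sets that can cross-hybridise, the share was 13.2% and the ribosomal members 16. With the highest probe set of each gene, the share was 15.3% and the antioxidant members 11. Leaving out each vehicle array in turn gave a median CV of 6.18% (without replicate 5) to 9.62% (without replicate 6). The members spanning at least 2-fold numbered 2 without replicate 5, 7 without replicate 4 and 9 without replicate 6. Scaling that kept the members was chosen after seeing the data; scaled to one median, 7 ribosomal members were highest on replicate 5. Causes were not tested beyond the number of members and arrays. Ranking by the median, by the geometric mean or after quantile normalization kept 290, 297 and 298 of the members, the highest probe set of each gene 242, and barring probe sets that can cross-hybridise 196. No paired analysis was possible because the vehicle and PGF2alpha arrays share no replicate number and the results come from no test. The number of arrays limits the precision, and signal over background was not available from the values used.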

Other observations

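Beyond the 300 members, some genes of the marker lists differed between the vehicle arrays by more than most members did. Probe sets at large did so too, with a median CV of 27.8% against 9.46% for the members. Among the non-members named below, the CV ran from 25.3% (GNLY) and 31.1% (COL1A1) to 93.8% (KIT). The genes were chosen after their values were seen, and no explanation was tested. KIT, the receptor of stem cell factor, gave 9310, 1619 and 2518 on vehicle replicates 4, 5 and 6. LCN2, an iron-siderophore binding protein, gave 3056, 6486 and 2954, whereas 8 of the 11 genes of its neutrophil list were lowest on vehicle replicate 5. Of those 11 genes, 7 were at or below the array median on all 3 arrays. LUM, the matrix proteoglycan lumican, gave 1015, 3099 and 1400, and COL1A1 gave 5391, 8152 and 4570. Of the 21 stroma genes 9 were highest on vehicle replicate 5 and 5 lowest there, against 38.6% and 33.5% of all named genes. The number highest there was 8 after quantile normalization and 7 after scaling to a common median. CYP17A1 was highest on vehicle replicate 6, as was CYP19A1. The genes of cytotoxic granules did not move together: GZMB was lowest on vehicle replicate 6 (4702), where GNLY was highest (1973, 2934 and 3322).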
